A study of Mus musculus with 12 samples.

Results

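Accessible chromatin domains that were listed in differentiating cells with induced Hoxc10, and in no other group of the series, are described here. These private iHoxc10 domains were selected on their presence and width alone: each was at least 150 bp wide, lay on chromosomes 1 to 19, X or Y, and overlapped by not even 1 bp a domain of any of the other 5 lists of the series. There were 950 of them among 33814 iHoxc10 domains of that width, 56232 iHoxc10 domains of any width and 482514 domains in the 6 lists together. The series profiled mouse embryonic stem cells by ATAC-seq, in which a transposase cuts and tags DNA that is free of tightly packed nucleosomes, during their differentiation into spinal motor neurons. It had 12 samples in 6 groups of 2, and 1 domain list per group that had been made from both samples together. Therefore no value below has an error between replicates, differences between lists or sets were not tested, and depth is unknown. Intervals in brackets are 95% Wilson intervals that cover the counting of domains only.

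The iHoxc10 group came from an Ainv15 stem cell line with a Flag-tagged Hoxc10 transgene, present as a single copy at the HPRT locus on chromosome X and switched on by doxycycline (Dox). Its cells were grown as embryoid bodies (EBs) with retinoic acid (RA, 1 µM) and the smoothened agonist SAG (0.5 µM) for 4 days, with Dox (3 µg/mL) during the last 48 h. The iHoxc6 and iHoxc9 groups were treated in the same way and carried Flag-tagged Hoxc6 or Hoxc9. The no Dox group was the iHoxc6 line after 4 days of RA and SAG without Dox. Day 2 progenitors and EBs came from the parental Ainv15(iCre) line, with 2 days of RA and SAG or none. No list of the iHoxc10 line without Dox was analysed here, so that the induction of Hoxc10 and the cell line that carries it cannot be told apart as sources of a private domain. Each group rested on 1 line, and whole EBs hold motor neurons beside interneurons and progenitors, so that a change in the share of a cell type and a change within cells cannot be told apart. The no Dox list had another file layout than the other 5 and its name gave another day than its label, and whether its domains were called with the same settings is not given in the sources used here. All 6 lists had a promoter domain at Olig2, Isl1, Mnx1 and Lhx3, genes of motor neurons and their progenitors, and only the EB list had any at the pluripotency genes Pou5f1 and Nanog. Promoter domains do not by themselves mark a cell type, since the mesoderm and endoderm genes Tbx6 and Foxa2 also had one in all 6 lists, Sox17 had 4 without Dox, and Chat, which makes acetylcholine in motor neurons, had 0 in iHoxc9.

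HOXC10 is a homeodomain transcription factor of the posterior group, known for specifying lumbar identity in the spinal cord, including motor neurons that innervate the hindlimb. Posterior Hox factors prefer a core spelled TTTAT, which reads ATAAA on the other strand, whereas central and anterior factors and many other homeodomain proteins prefer TAAT. The TALE proteins PBX and MEIS bind DNA together with Hox factors, and a composite of a PBX and a posterior Hox site reads TGATTTAT. MEIS alone recognises TGACAG.

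Sequences of 12 private domains are shown, read from the plus strand of the RefSeq GRCm38 (mm10) assembly. Where a domain exceeded 250 bp, 250 bp of it are given. The first 4 had the most TTTAT per kb among private domains at least 200 bp wide, and capitals mark each TTTAT or ATAAA. The domain in an intron of Hacd2 (chr16:35102128-35102347, nearest transcription start site (TSS) that of Adcy5) held 6 matches in 220 bp. A domain in an intron of Mdga2 (277 bp, of which chr12:66615821-66616070 is shown) held 7. An intergenic domain 56.5 kb from the TSS of Adam23 (269 bp, chr1:63389246-63389495 shown) held 6, of which 5 are in the stretch shown. An intergenic domain 179 kb from the TSS of N4bp1 (chr8:87064072-87064275) held 4 in 204 bp.
Hacd2 intron: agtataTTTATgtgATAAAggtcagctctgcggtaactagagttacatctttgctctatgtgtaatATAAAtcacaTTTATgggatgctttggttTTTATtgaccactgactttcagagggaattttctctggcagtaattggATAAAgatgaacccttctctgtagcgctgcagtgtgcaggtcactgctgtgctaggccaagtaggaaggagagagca
Mdga2 intron: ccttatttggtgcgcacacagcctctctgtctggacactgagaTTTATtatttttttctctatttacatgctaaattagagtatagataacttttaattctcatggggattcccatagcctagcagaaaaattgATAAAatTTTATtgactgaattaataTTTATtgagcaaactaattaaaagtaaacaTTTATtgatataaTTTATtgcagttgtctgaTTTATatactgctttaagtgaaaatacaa
near Adam23: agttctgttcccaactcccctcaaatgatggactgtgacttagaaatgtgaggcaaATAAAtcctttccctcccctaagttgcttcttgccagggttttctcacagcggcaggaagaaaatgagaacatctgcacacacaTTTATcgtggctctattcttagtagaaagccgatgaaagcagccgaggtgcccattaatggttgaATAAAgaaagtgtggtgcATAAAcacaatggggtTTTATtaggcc
near N4bp1: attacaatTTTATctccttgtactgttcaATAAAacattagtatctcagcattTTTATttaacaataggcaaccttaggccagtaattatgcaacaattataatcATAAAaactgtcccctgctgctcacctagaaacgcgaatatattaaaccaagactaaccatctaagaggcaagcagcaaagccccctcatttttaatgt

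The next 4 held at least 1 TTTAT and were nearest to the TSS of a gene of the Hox, TALE cofactor, motor neuron, limb and lumbar motor column or axon guidance lists, with TTTAT and ATAAA again in capitals. They were 4.52 kb from the TSS of Efna3, a membrane-bound ephrin ligand (chr3:89327374-89327590, intergenic), 9.53 kb from that of Hoxc4 (chr15:103028343-103028575, in its intron), 12.5 kb from that of the semaphorin receptor Plxna2 (345 bp in its intron, chr1:194630603-194630852 shown) and 14.5 kb from that of Etv1, a transcription factor of motor neuron pools (chr12:38793777-38793999, in its intron).
near Efna3: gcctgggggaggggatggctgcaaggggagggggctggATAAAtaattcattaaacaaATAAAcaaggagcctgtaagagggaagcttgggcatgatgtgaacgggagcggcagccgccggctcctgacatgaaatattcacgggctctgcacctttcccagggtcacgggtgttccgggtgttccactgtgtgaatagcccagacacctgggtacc
Hoxc4 intron: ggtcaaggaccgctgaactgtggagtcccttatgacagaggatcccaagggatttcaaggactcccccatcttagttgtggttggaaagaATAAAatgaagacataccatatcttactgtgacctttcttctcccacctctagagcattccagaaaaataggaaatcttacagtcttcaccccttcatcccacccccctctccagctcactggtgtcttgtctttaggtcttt
Plxna2 intron: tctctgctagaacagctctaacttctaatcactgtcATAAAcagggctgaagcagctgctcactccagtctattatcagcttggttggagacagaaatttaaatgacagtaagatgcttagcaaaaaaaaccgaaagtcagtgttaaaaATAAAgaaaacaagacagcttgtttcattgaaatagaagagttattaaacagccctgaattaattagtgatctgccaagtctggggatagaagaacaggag
Etv1 intron: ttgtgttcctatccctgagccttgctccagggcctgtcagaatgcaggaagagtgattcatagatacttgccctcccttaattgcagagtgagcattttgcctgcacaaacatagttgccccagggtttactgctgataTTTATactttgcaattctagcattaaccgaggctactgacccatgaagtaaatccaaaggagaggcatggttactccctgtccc

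The widest private domain measured 869 bp and lay in an intron of Sobp, and its middle 250 bp (chr10:43103911-43104160) contained 2 of its 7 TTTAT matches. Finally, 3 domains represent the 34 that held the composite TGATTTAT (ATAAATCA on the other strand), which alone is in capitals here. They were an intergenic domain 492 kb from the TSS of Prkd1 (chr12:50156987-50157192) with 2 composites in 206 bp, the 691 bp domain 217 kb from Tshz3 (chr7:36480326-36480575 shown) and a 473 bp domain 277 kb from Gpc5 (chr14:114815487-114815736 shown).
Sobp intron: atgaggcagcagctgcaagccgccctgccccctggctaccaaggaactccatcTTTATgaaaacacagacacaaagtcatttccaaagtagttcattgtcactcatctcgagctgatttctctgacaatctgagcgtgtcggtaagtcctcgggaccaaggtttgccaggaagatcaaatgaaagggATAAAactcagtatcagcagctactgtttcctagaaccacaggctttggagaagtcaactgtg
near Prkd1: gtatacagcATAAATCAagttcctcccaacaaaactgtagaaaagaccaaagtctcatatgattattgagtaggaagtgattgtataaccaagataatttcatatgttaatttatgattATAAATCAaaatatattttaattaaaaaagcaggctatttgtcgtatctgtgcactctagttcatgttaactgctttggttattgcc
near Tshz3: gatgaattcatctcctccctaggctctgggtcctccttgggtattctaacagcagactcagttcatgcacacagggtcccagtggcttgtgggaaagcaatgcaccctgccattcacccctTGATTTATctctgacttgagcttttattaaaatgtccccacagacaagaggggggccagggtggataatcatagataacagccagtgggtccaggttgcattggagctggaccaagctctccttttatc
near Gpc5: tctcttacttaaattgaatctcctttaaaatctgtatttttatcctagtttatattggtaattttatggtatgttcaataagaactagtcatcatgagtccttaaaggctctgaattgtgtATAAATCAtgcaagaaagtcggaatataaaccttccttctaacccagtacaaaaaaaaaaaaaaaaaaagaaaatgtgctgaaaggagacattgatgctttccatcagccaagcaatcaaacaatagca

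How rare such domains were was set against the same rule applied to every list. Private domains made up 2.81% of the iHoxc10 domains at least 150 bp wide. The share was 2.85% in iHoxc6 (1173 domains), 5.14% in iHoxc9 (1598), 4.85% without Dox (2186), 8.04% in day 2 progenitors (3340) and 26.3% in EBs (10978). Of all 6 lists iHoxc10 thus had the fewest private domains and the lowest share, close to that of iHoxc6. The share depends on how many domains the other lists hold. Counting all widths the iHoxc10 list was the shortest of the 6, and at 150 bp or wider the iHoxc9 list was, with 31062. At the other end, 19707 iHoxc10 domains of this width (58.3%) overlapped a domain of each of the other 5 lists. Removing a list from the rule showed which lists held the remaining candidates. Without iHoxc9 there would have been 577 more private domains, without iHoxc6 345 more, without no Dox 340, without day 2 progenitors 89 and without EBs 64.

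**Figure D1:**
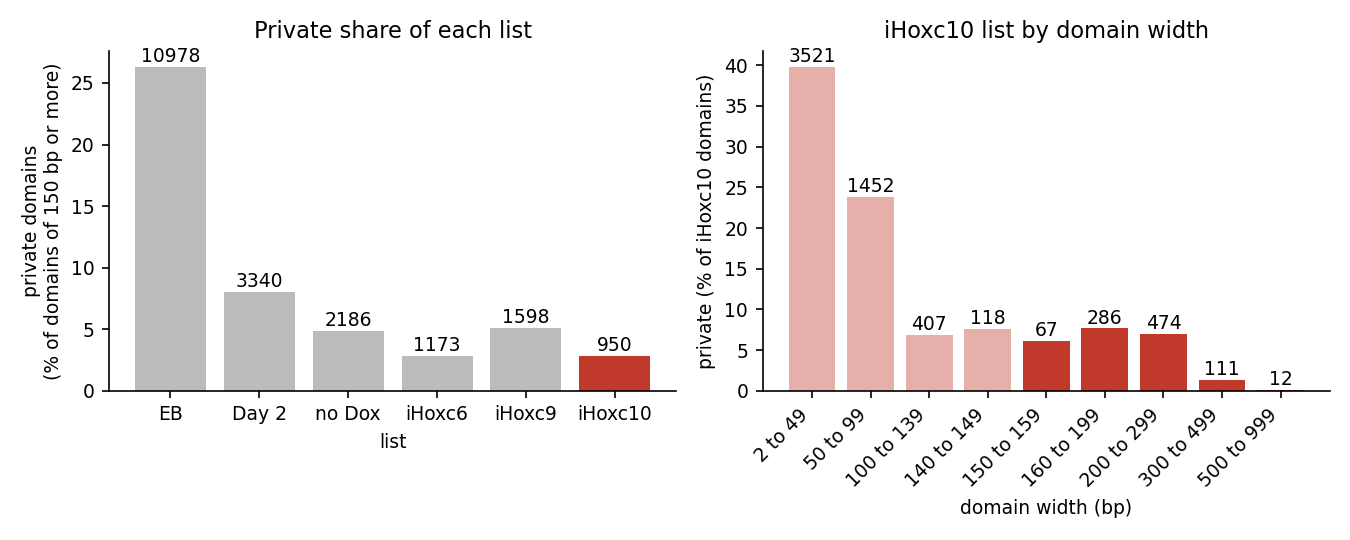
Left, domains at least 150 bp wide that overlap no domain of the other 5 lists, as a percentage of all domains of that width in each list, with their number above each bar. Right, the same percentage for the iHoxc10 list in classes of domain width, where dark bars are the 950 domains described and pale bars fall below the 150 bp limit.

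Private domains were narrow. Their median width was 218 bp (quartiles 186 and 258 bp), against 422 bp for the other iHoxc10 domains. Width was part of the rule, so these values only describe it. Just below the limit, at 140 to 149 bp, 118 of 1553 iHoxc10 domains overlapped no other list (7.60%), and just above it, at 150 to 159 bp, 67 of 1085 did (6.18%). It was 7.66% from 160 bp to under 200 bp and 6.98% from 200 bp to under 300 bp, and only 1.34% at 300 to 499 bp (111 domains) and 0.124% at 500 to 999 bp (12 domains). After the 869 bp domain in Sobp, the widest were 720 bp, intergenic and 301 kb from the TSS of Mat2b (chr11:40394002-40394721), 691 bp near Tshz3, 658 bp on a coding exon of Ubtf (chr11:102310768-102311425) and 634 bp on a noncoding gene 128 kb from Prkg2 (chr5:99165517-99166150). Domains of 603 bp near Dctd, 590 bp in an intron of B3galt1, 554 bp in an intron of Mmp28, 543 bp near Pik3c3 and 533 bp in an intron of Ky completed the 10 widest. The B3galt1 domain (chr2:68049236-68049825) held 8 TTTAT, the most of any private domain, and lay 27517 bp from the nearest domain of any other list. In contrast the Ubtf domain held neither TTTAT nor TAAT. The order of the rows in the deposited list, which the sources used here do not explain, followed width closely (Spearman's rho -0.939 over all 56232 iHoxc10 domains). Private domains stood late in it even for their width: the median place of those from 200 bp to under 300 bp wide was at 67.9% of the list, and that of the other iHoxc10 domains of this width at 46.6%.

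Most private domains were not fringes of a domain that another list already had. The nearest domain of any other list was a median of 1822 bp away (quartiles 341 and 5381.5 bp), and 579 private domains (60.9%, 57.8 to 64.0) had none within 1 kb. However, 180 (18.9%, 16.6 to 21.6) had one within 200 bp and 76 within 50 bp, where a small shift of a boundary would have ended their private status. Medians to the single lists were 5104.5 bp for iHoxc6, 6206.5 bp for no Dox, 6768.5 bp for day 2 progenitors, 7511.5 bp for EBs and 9332 bp for iHoxc9. Private iHoxc9 domains stood farther away from all other lists, by a median of 4328.5 bp with 7.95% (6.72 to 9.38) within 200 bp, while private iHoxc6 domains had a median of 1959 bp and private no Dox domains one of 1130.5 bp.

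Nearly all private iHoxc10 domains lay away from promoters. Only 17 (1.79%, 1.12 to 2.85) had their centre within 1 kb of the TSS of a protein-coding gene, against 34.0% (33.5 to 34.5) of the other iHoxc10 domains. The median distance to such a TSS was 66.2 kb, with quartiles of 22.5 and 182 kb, and 57.8% (54.6 to 60.9) were farther than 50 kb. Of the 950, 429 lay in introns of protein-coding genes (45.2%, 42.0 to 48.3), 398 were intergenic (41.9%), 66 fell on noncoding genes, 35 on coding exons and 22 on untranslated or other exons. Against the 21692 other iHoxc10 domains beyond 1 kb from a TSS, which were a median of 48.1 kb away, introns were more frequent among the private ones (35.4%, 34.8 to 36.1, of the others) and coding exons less so (3.68%, 2.66 to 5.08, against 8.52%, 8.16 to 8.90). Private iHoxc6 and no Dox domains were similar in introns, with 43.7% (40.9 to 46.6) and 44.3% (42.3 to 46.4), and in coding exons, with 4.35% and 5.26%. Promoters took 3.24% (2.37 to 4.42) and 4.39% (3.61 to 5.33) of them, and the no Dox interval lay above that of private iHoxc10 domains. Introns took 37.5% (35.1 to 39.9) of private iHoxc9, 39.7% (38.1 to 41.4) of private day 2 and 32.7% (31.8 to 33.6) of private EB domains. Coding exons took 1.63%, 3.02% and 7.74% of these. Private iHoxc9 domains reached farther, with a median of 141 kb and 15.8% (14.1 to 17.7) beyond 500 kb, where 5.79% (4.47 to 7.46) of the private iHoxc10 domains were found.

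**Figure D2:**
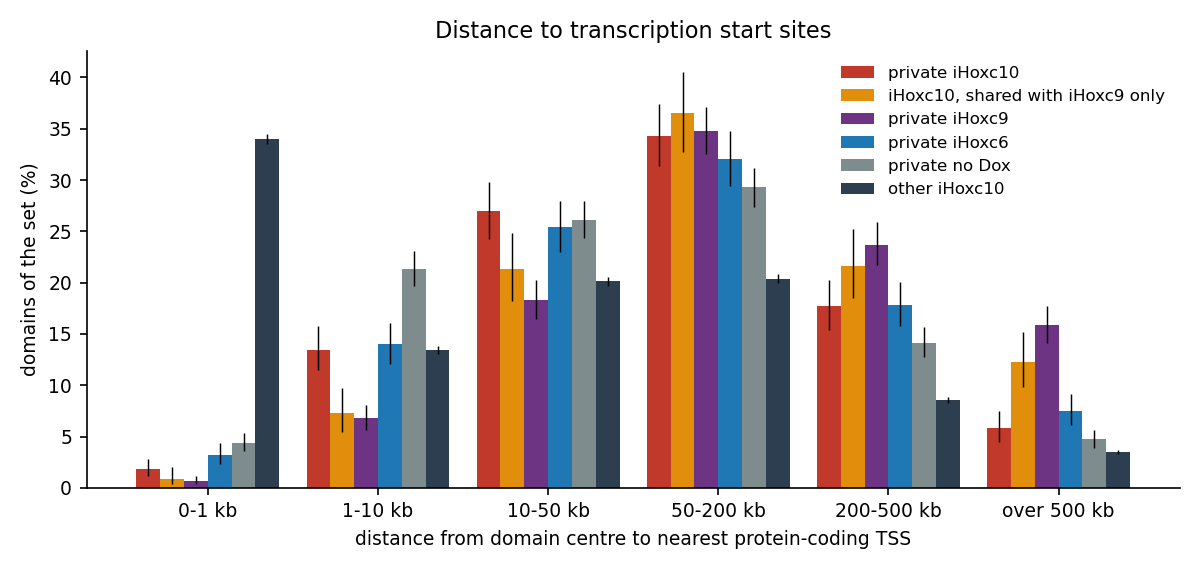
Percentage of the domains of each set by distance of their centre from the nearest protein-coding TSS, with 95% Wilson intervals. Private iHoxc10 domains (red) are rare within 1 kb, where 34.0% of the other iHoxc10 domains lie, and peak at 50 to 200 kb with 34.3%, while private iHoxc9 domains (purple) lie farther out.

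The 17 promoter domains included those at Cdkn1c, an inhibitor of the cell cycle (846 bp from its TSS, on a coding exon), Stmn4, a neuronal stathmin that regulates microtubules (607 bp upstream), Rtn4rl1, a receptor of the Nogo receptor family (573 bp), and Dab2ip (258 bp). The nearest to a TSS was at Tmem253 (66.5 bp). The exonic domains included coding exons of Snap25, a protein of synaptic vesicle fusion, of the ephrin receptor Epha5 (273 bp, chr5:84150179-84150451, 40162 bp from any other list) and of the progenitor factor Dbx1.

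The induced gene itself carried a private domain. This domain of 473 bp (chr15:102966853-102967325) lay on exon 1 of Hoxc10 and ran from 5 bp before the start codon into the coding sequence. It covered 468 of the 751 coding bases of that exon (62.3%), whereas the second coding exon and the 3' untranslated region held no domain in any list, and exon 1 was without a domain in EBs, day 2 progenitors, no Dox, iHoxc6 and iHoxc9. The source of the Hoxc10 coding sequence in the transgene is not given in the sources used here, and whether reads came from the transgene or from the gene on chromosome 15 cannot be told apart. Its nearest neighbour in another list was 126 bp away. At Hprt, where the transgene sits, the iHoxc10 list had 0 domains within 5 kb of the gene, as had the EB list, and the other 4 lists had 1 narrow domain each. In the 4 Hox clusters 3 private domains were found: that on Hoxc10, the one in the Hoxc4 intron, and one of 250 bp on an exon within HoxA (chr6:52179793-52180042), shared by Hoxa3 and the overlapping genes 5730596B20Rik and Gm28308. HoxB and HoxD held none. The iHoxc10 list had 21, 29, 11 and 19 domains at least 150 bp wide in HoxA, HoxB, HoxC and HoxD, which at the share of 2.81% in the whole list is too few to read a lack of private domains from 0. Domains nearest to a Hox gene made up 0.211% (0.0578 to 0.764) of the private and 0.246% of the other iHoxc10 domains.

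Hox cofactors are considered next. The Meis1 locus, encoding a TALE partner of Hox proteins, was nearest to 4 private domains, as many as any gene in the genome had. They measured between 222 and 263 bp. The first pair lay in Meis1 introns, 55.2 kb (chr11:18963628-18963849) and 89.2 kb (chr11:18929677-18929935) from its TSS, and the others 148 and 331 kb away. All 4 contained TTTAT, and that at 89.2 kb contained the composite TGATTTAT and a MEIS core. Each was a near miss of the rule, since another list had a domain 62, 41, 60 and 31 bp away: iHoxc6 for the first, no Dox for the next pair, and iHoxc9 for the last. Counting all domains at least 150 bp wide that were nearest to Meis1, the iHoxc10 list had 33, the 4 private ones included. The iHoxc6 list also had 33, no Dox 37, day 2 progenitors 26, iHoxc9 19 and EBs 14.

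Genes of axon guidance and adhesion had 22 private domains at 16 of 70 genes (2.32%, 1.53 to 3.48), beside 1.80% of the other iHoxc10 domains and 2.64% of the genome. Their share was 4.32% in private iHoxc9, 2.30% in private iHoxc6 and 2.10% in private no Dox domains. Robo2, a receptor of Slit ligands that steers axons, had 4 private iHoxc10 domains. Their distances from its TSS were 25.0, 142, 180 and 294 kb, the first pair within its introns, and their widths 271, 238, 159 and 157 bp. The iHoxc10 list had 18 domains at least 150 bp wide nearest to Robo2, against 11 in iHoxc9, 13 in EBs, 20 without Dox, 22 in iHoxc6 and 27 in day 2 progenitors. Single domains were nearest to Robo1 and to the ligand Slit2. The semaphorin receptor Plxna4 and the adhesion genes Opcml and Cntnap5b had 2 each. The ephrin ligands Efna3 and Efna5 and the receptor Epha5 had 1 each, and that of Efna5 (313 kb away) held TGATTTAT.

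The limb and lumbar motor column list held 12 private domains at 9 of 39 genes (1.26%, 0.724 to 2.19), beside 0.858% of the other iHoxc10 domains and 1.74% of the genome. Its share was 2.57% in private iHoxc9, 1.62% in private iHoxc6 and 1.24% in private no Dox domains. Foxp1, a Hox cofactor that sets the columnar identity of limb-innervating motor neurons, had 3 private iHoxc10 domains. They were 232 bp (57.6 kb from its TSS) and 532 bp (187 kb, chr6:99335346-99335877), both in its introns, and 164 bp (63.1 kb upstream). Foxp1 was also nearest to 3 private no Dox domains. Domains at least 150 bp wide nearest to Foxp1 numbered 16 in iHoxc10, the 3 private ones included, and 16 in iHoxc9. No Dox had 15, iHoxc6 14, and day 2 progenitors and EBs 11 each. Private iHoxc10 domains numbered 2 at the cadherin Cdh8, 1384 and 1554 kb away. Etv1, Ret, the receptor of GDNF, Epha4, Cdh11, Cdh20, Tbx5 and Fign had 1 each. In the motor neuron list the LIM homeodomain genes Isl1 (330 kb away) and Lhx3 (37.2 kb) and the neurofilament genes Nefl (66.3 kb) and Nefm (94.0 kb) had 1 each, 4 in all (0.421%, 0.164 to 1.08) beside 0.545% of the other iHoxc10 domains.

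Progenitor and Notch pathway genes had 11 private domains at 7 of 29 genes (1.16%, 0.648 to 2.06), beside 0.599% of the other iHoxc10 domains and 0.298% of the genome. The same list took 0.188% of private iHoxc9, 0.256% of private iHoxc6 and 0.549% of private no Dox domains. Irx3, a homeodomain factor that sets a boundary between progenitor domains of the spinal cord, had 4, at 29.6, 38.5, 209 and 264 kb. That at 29.6 kb (chr8:91772303-91772546) was 21050 bp from any domain of another list and that at 38.5 kb (chr8:91840419-91840636) 10570 bp, whereas those at 209 and 264 kb were 29 and 525 bp from one. The iHoxc10 list had 24 domains of at least 150 bp nearest to Irx3, of which 4 were the private ones selected by the rule and 20 were not. No Dox also had 20, iHoxc6 15, day 2 progenitors 13, iHoxc9 6 and EBs 4. Dbx1, which marks progenitors of ventral interneurons, had 2, and the Notch ligand Dll4, the Notch effector Hes1, Irx5, Msx1 and Sox11 had 1 each. Spinal interneuron genes had 6 (0.632%, 0.290 to 1.37), beside 0.268%, with 2 each at Pax2 and Lmx1b and 1 each at Barhl1 and Prdm13. RA and Hedgehog genes had 4 (0.421%), beside 0.356%: 2 near Cyp26b1, which degrades RA, 1 in Rara, an RA receptor, and 1 in the Hedgehog receptor Ptch1. Mesoderm and endoderm genes had 2 (0.211%, beside 0.237% of the other iHoxc10 domains), near Meox1 and Pax9, and pluripotency genes 1 (0.105%, beside 0.0974%), near Prdm14. With 1 to 22 domains per list these shares are imprecise, and of the lists given with their shares here, the intervals of all but the progenitor and interneuron ones included the share of the other iHoxc10 domains.

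Outside the lists, Gm4791, Mrm1 and Stk39 were also nearest to 4 private domains each, and Glp1r, Lrmda, Mat2b, Msi2, Ptbp2 and Raet1d to 3. The 4 of Mrm1 formed the only group of 4 in which neighbours were at most 50 kb apart, over 64.8 kb (chr11:84706466-84771272). Of the 10 iHoxc10 domains at least 150 bp wide nearest to that gene 6 were not private, beside 2 to 7 domains in the other lists. Msi2, an RNA-binding protein of neural progenitors, had its 3 within its own introns. In all, the 950 domains were spread over 826 nearest genes, 721 of which had a single one, and 98 domains (10.3%) stood in 46 groups with gaps of at most 50 kb.

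By chromosome, private domains numbered between 24 and 76 on the autosomes. Density was highest on chromosome 11, with 60.6 per 100 Mb, and lowest among autosomes on chromosome 7, with 26.8. Chromosome 11 held 7.79% (6.25 to 9.67) of them, beside 6.69% of the other iHoxc10 domains and 2.50% (1.84 to 3.39) of private iHoxc9 domains. Chromosome X had 4 and chromosome Y 0. The 4 on X were 153 to 179 bp wide and made up 0.421% (0.164 to 1.08), beside 2.31% (2.15 to 2.47) of the other iHoxc10 domains, 1.19% (0.712 to 1.99) of private iHoxc6 domains and 1.37% (0.963 to 1.95) of private no Dox domains. Thus 0.525% of the iHoxc10 domains on X were private, against 1.86% or more on every autosome. Of iHoxc10 domains shared with iHoxc6 alone, 0.290% (0.0512 to 1.62) lay on X. For those shared with iHoxc9 alone it was 1.04% (0.477 to 2.25), and with no Dox alone 1.47% (0.630 to 3.40). These intervals overlapped that of private iHoxc10 domains.

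**Figure D3:**
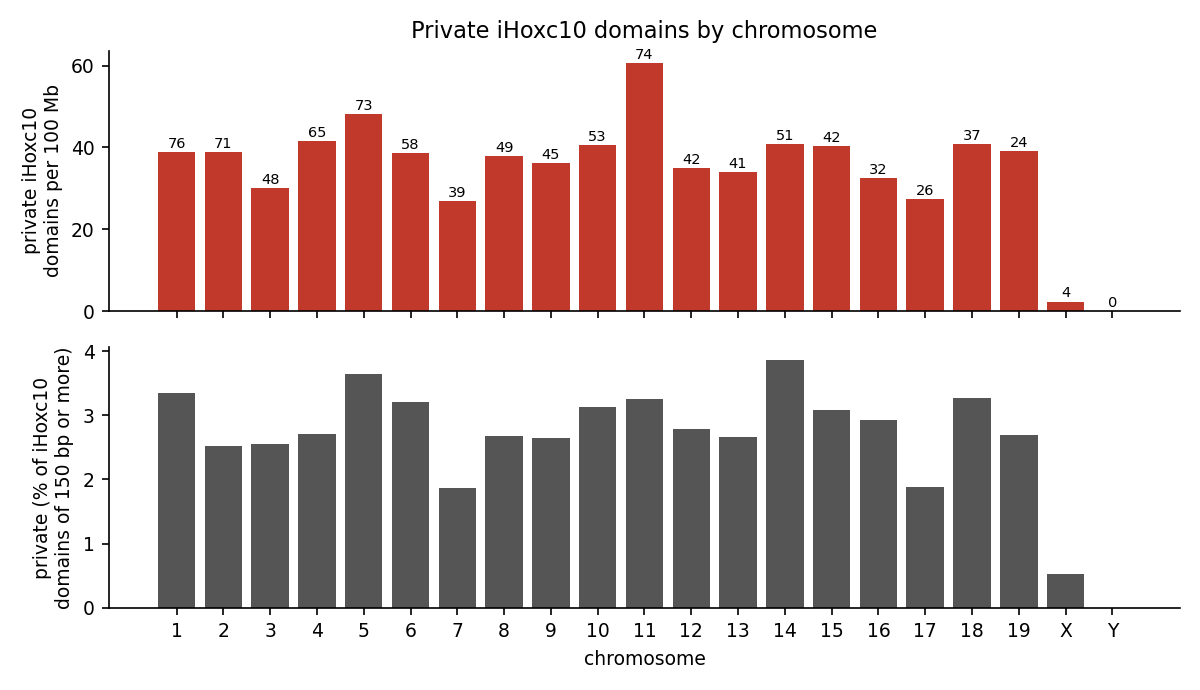
Private iHoxc10 domains per 100 Mb of each chromosome with their number above each bar (top), and their percentage of all iHoxc10 domains at least 150 bp wide on that chromosome (bottom). Chromosome X stands at 2.34 per 100 Mb and 0.525%, and no autosome falls below 26.8 per 100 Mb.

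The sequence of private domains was then examined, which the rule had not used. Their median G+C content was 47.1% (quartiles 42.5 and 52.1), below the 50.2% of the other iHoxc10 domains beyond 1 kb from a TSS and above the 41.9% of private iHoxc9 domains. CpG dinucleotides numbered 14.3 per kb, against 25.9 in those other iHoxc10 domains. Repeats masked in the assembly took a mean of 11.4% of their length, and 417 domains (43.9%, 40.8 to 47.1) held none. Private iHoxc6 and no Dox domains were alike, with median G+C of 46.6% and 48.1% and 13.4 and 13.7 CpG per kb. Repeats took 11.2% and 12.6% of their length.

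The posterior core TTTAT occurred in 517 of the 950 private domains (54.4%, 51.2 to 57.6) and was absent from 433. In most of those that had it, the number was low: 300 had 1 match, 135 had 2, 48 had 3, 22 had 4 and the rest had 5 to 8. In the central 150 bp, a window equal for all domains, 45.7% (42.5 to 48.9) held TTTAT. The window at the same domains 5 kb to either side held it in 39.4% of cases. This share was 32.5% (31.9 to 33.1) in the other iHoxc10 domains beyond 1 kb from a TSS, 32.5% (29.9 to 35.2) in private iHoxc6 domains, 32.7% (30.8 to 34.7) in private no Dox domains and 77.6% (75.5 to 79.6) in private iHoxc9 domains. Private day 2 and EB domains held it in 35.1% and 22.2%. Of the 577 iHoxc10 domains that overlapped the iHoxc9 list and no other, 69.0% (65.1 to 72.6) held TTTAT. For those shared with iHoxc6 alone it was 47.5% (42.3 to 52.8), and with no Dox alone 42.9% (37.8 to 48.3). Private iHoxc10 domains thus stood above private iHoxc6, no Dox, day 2 and EB domains and well below the iHoxc10 domains shared with iHoxc9 alone. Their interval overlapped those of iHoxc10 domains shared with iHoxc6 alone or no Dox alone.

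Base composition moved with these shares, since an AT-rich core is met more often in AT-rich DNA. Within each of 5 classes of G+C content, private iHoxc10 domains stood below both iHoxc9 sets and within a few percentage points of the other iHoxc10 domains. Where the central window was under 40% G+C, 73.7% (67.3 to 79.2) of private iHoxc10 domains held TTTAT, beside 69.9% (68.0 to 71.7) of the other iHoxc10 domains beyond 1 kb from a TSS, 87.8% (81.8 to 92.1) of those shared with iHoxc9 alone, 57.7% (51.1 to 64.1) of private iHoxc6 and 59.1% (53.9 to 64.0) of private no Dox domains. At 45 to 50% G+C the shares were 41.6% (35.2 to 48.2), 37.8% (36.4 to 39.3), 62.2% (53.8 to 70.0), 24.7% (19.96 to 30.2) and 34.5% (30.4 to 38.9) in the same order. At 50 to 55% they were 29.7% (23.8 to 36.3), 25.1% (23.8 to 26.4), 46.6% (35.6 to 57.9), 17.2% (12.5 to 23.3) and 19.6% (16.3 to 23.3). The intervals of private iHoxc10 and iHoxc6 domains were apart in these 3 classes, those of private iHoxc10 and no Dox domains overlapped at 45 to 50%, and those of private iHoxc10 domains and domains shared with iHoxc9 alone touched at 50 to 55%.

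**Figure D4:**
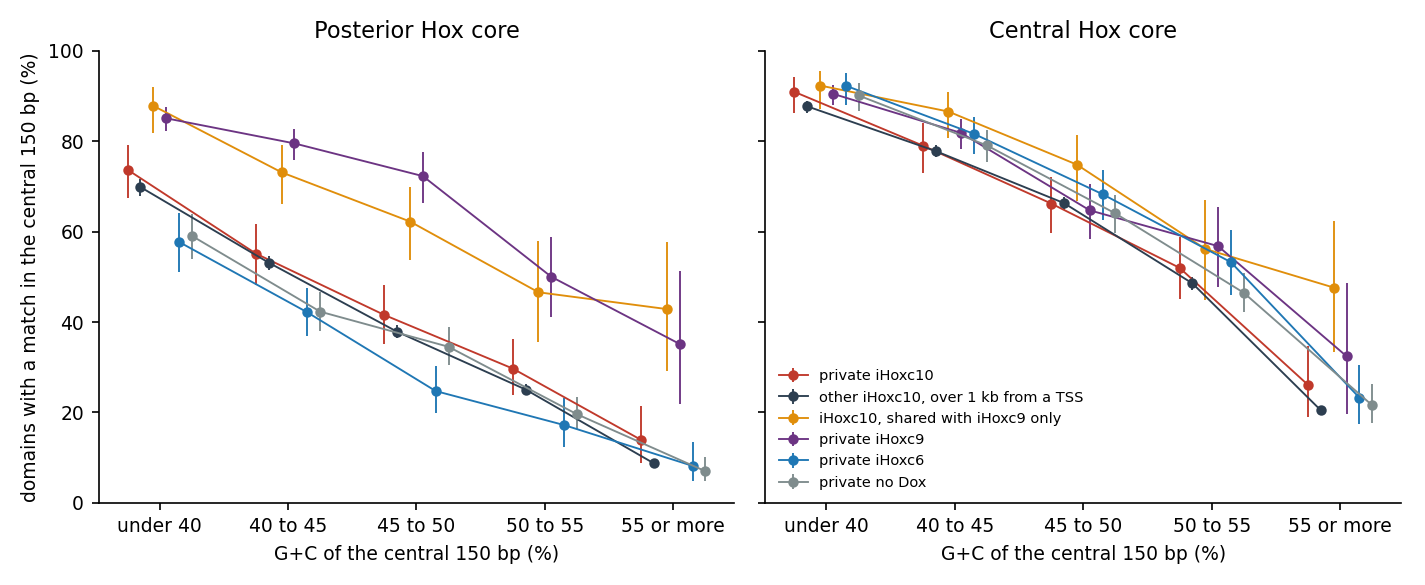
Percentage of domains with a match to the posterior (left) or central (right) Hox core in the central 150 bp, by G+C content of that window, with 95% Wilson intervals. For the posterior core private iHoxc10 domains (red) run from 73.7% to 13.9%, beside the other iHoxc10 domains and below both iHoxc9 sets, while for the central core the sets lie closer together.

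The density of TTTAT in the central 150 bp of private iHoxc10 domains was 4.41 matches per kb, against 3.92 in windows 5 kb away, a ratio of 1.13 (1.02 to 1.24 from the counts of matches). This small difference depended on the setting: with flanks 20 kb away the ratio was 1.05 (0.951 to 1.15), in the 579 domains farther than 1 kb from any other list 1.04 (0.918 to 1.17), and in the 417 domains without repeats 0.983. With the flanking windows weighted to the G+C content of the central ones the ratio was 1.34, both in all private iHoxc10 domains and in the 417 without repeats. Weighted ratios were 1.32 in the other iHoxc10 domains beyond 1 kb from a TSS, 2.07 in those shared with iHoxc9 alone, 1.49 in those shared with iHoxc6 alone, 1.47 in those shared with no Dox alone, and 2.11, 0.915 and 0.987 in private iHoxc9, iHoxc6 and no Dox domains. Within private iHoxc10 domains matches were densest at the middle, with 5.33 and 4.51 per kb in the pair of 50 bp bins around the centre and 3.37 and 3.41 in the next bins outwards. Single bins farther out reached 4.95 per kb. Private no Dox domains also had more matches in the central bins (3.11 and 3.24 per kb) than in the next (2.47 and 2.41). So had private iHoxc6 domains (3.28 and 3.05 against 2.85 and 2.32). In private iHoxc10 domains G+C content was 45.2% and 45.6% in the central bins and 48.2% and 48.3% in the next. The unweighted ratio was 1.21 in the 353 domains under 200 bp, 1.07 in the 474 from 200 bp to under 300 bp and 1.13 in the 123 of 300 bp or more. It was 1.31 in the 180 domains within 200 bp of another list and, after weighting, 1.25 in the 579 farther than 1 kb.

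**Figure D5:**
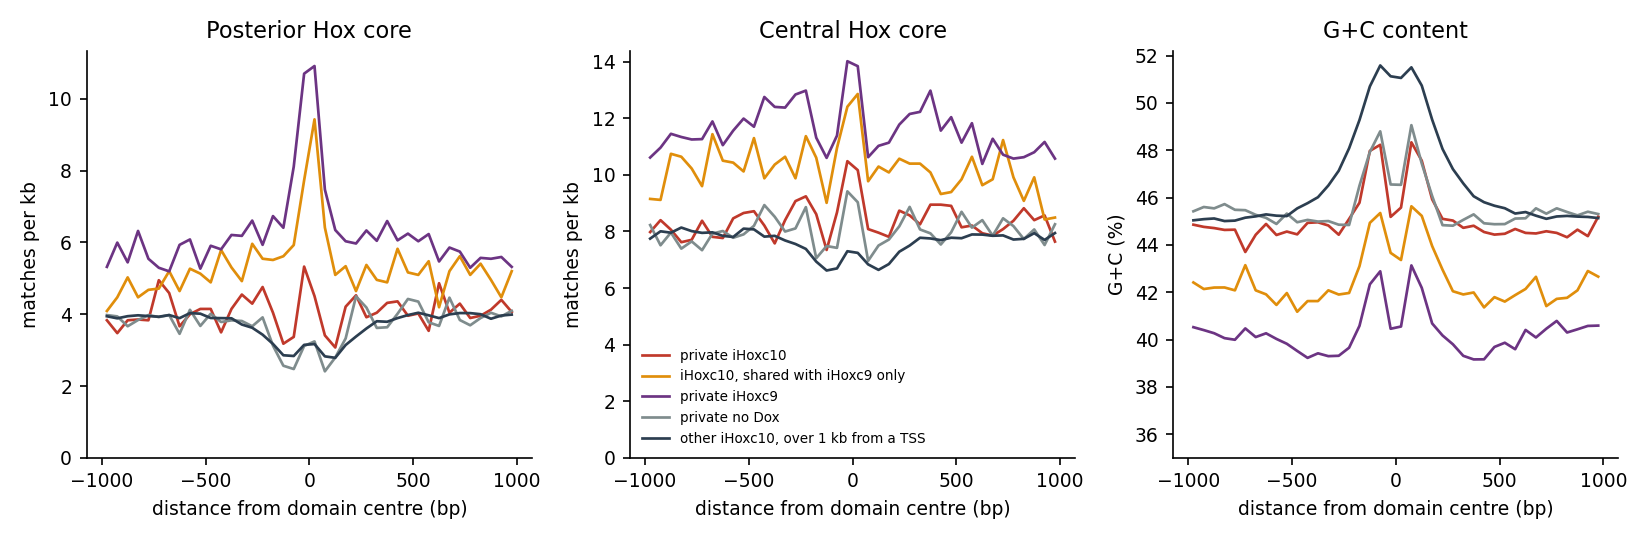
Matches per kb to the posterior core (left) and central core (middle) and G+C content (right) in 50 bp bins up to 1000 bp from domain centres. Private iHoxc10 domains (red) show a narrow posterior peak of 5.33 per kb at the centre, lower than that of iHoxc10 domains shared with iHoxc9 alone (orange) and of private iHoxc9 domains (purple). Private no Dox domains (grey) also rise there over the next bins, to 3.24 per kb. The G+C content of private iHoxc10 domains dips in the same central bins. G+C content is drawn on an axis that does not start at 0.

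The central core TAAT was found in the central window of 632 private iHoxc10 domains (66.5%, 63.5 to 69.5), at 9.68 per kb against 7.83 in the flanks, a ratio of 1.24, or 1.43 after weighting. This weighted ratio was 1.46 in the other iHoxc10 domains beyond 1 kb from a TSS and 1.41, 1.54 and 1.46 in private iHoxc9, iHoxc6 and no Dox domains. Over all sets it ran from 1.11 in private EB and 1.18 in private day 2 domains to 1.60 and 1.62 in iHoxc10 domains shared with no Dox or iHoxc6 alone. Over whole domains, 434 private iHoxc10 domains held both cores, 278 only TAAT, 83 only TTTAT and 155 neither (16.3%, 14.1 to 18.8). Those with both were AT-rich (median G+C 43.7%) and far from TSS (median 92.9 kb), and those with neither were richer in G+C (53.7%) and closer (31.4 kb).

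Among the cofactor sites, the composite TGATTTAT lay in the central window of 25 private iHoxc10 domains (2.63%, 1.79 to 3.86) and in 0.737% of their flanking windows. The share was 2.19% (2.00 to 2.39) in the other iHoxc10 domains beyond 1 kb from a TSS, 5.37% (3.81 to 7.53) in those shared with iHoxc9 alone, and 6.45% (5.34 to 7.76) in private iHoxc9 domains. It was 0.938% (0.524 to 1.67) in private iHoxc6 domains, 1.60% (1.15 to 2.22) in private no Dox domains, whose interval overlaps that of private iHoxc10 domains, and 3.19% (1.79 to 5.62) in iHoxc10 domains shared with iHoxc6 alone. Its letters include TTTAT, so that both counts overlap. The PBX and central Hox composite TGATTAAT was in 10 (1.05%, 0.573 to 1.93), beside 0.368% of the flanks. The MEIS core TGACAG was in 12.7% (10.8 to 15.01), beside 11.6% of the flanks and 12.7% of the other iHoxc10 domains beyond 1 kb from a TSS. Thus the intervals of both composites lay above their shares in the flanks, and that of the MEIS core included its share there.

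Sites of other factor families were searched by short cores on both strands. The Onecut core ATCAAT, bound by a homeodomain family of young motor neurons, was in 13.2% (11.2 to 15.5) of private iHoxc10 domains and 7.11% of their flanks, a weighted ratio of 2.29, and in 8.53% (8.16 to 8.91) of the other iHoxc10 domains beyond 1 kb from a TSS (weighted ratio 2.12). It was in 12.9%, 10.7% and 10.9% of private iHoxc9, iHoxc6 and no Dox domains, and more often in iHoxc10 domains shared with iHoxc6 alone (19.1%, 15.3 to 23.6) or no Dox alone (16.2%, 12.6 to 20.5). The Hox13 core TTTAC was in 25.3% (22.6 to 28.1) with a weighted ratio of 1.17. The E-box CAGCTG of neurogenic bHLH factors was in 10.4% (8.63 to 12.5) of private domains and 15.1% (14.6 to 15.6) of those other iHoxc10 domains. Likewise the SOX core ACAAAG was in 13.8% (11.7 to 16.1) against 17.6%, the octamer ATGCAAAT of POU factors in 0.632% (0.290 to 1.37) against 1.68%, the CTCF core AGGGGGC in 2.95% (2.05 to 4.23) against 5.17% and the GC box GGGCGG in 3.05% (2.13 to 4.35) against 11.8%. Those other iHoxc10 domains were richer in G+C, which was not accounted for in these shares. The interval of the octamer in private iHoxc10 domains included the 1.00% of their flanking windows that held it. A match to such short letters describes the sequence and is no evidence of binding.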

How the data were processed

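ATAC-seq domain lists of 12 samples in 6 groups were used. The authors mapped paired-end reads to mm10 with Bowtie2 2.2.2 and called domains with DomainFinder, and the submitters' processing notes also name Picard 2.8.2. Each deposited list gives starts and ends in bp for both replicates together, without counts, heights, scores or p-values. The sources do not say if starts count from 0, which leaves an uncertainty of 1 bp. Depth and calling settings are not given in the sources used here.

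Lists were intersected unmerged. Genes came from GENCODE M21 and sequence from RefSeq GRCm38.p6. A domain was assigned to the protein-coding TSS nearest to its centre. Motif letters were matched on both strands. Ratios compare matches per kb in the central 150 bp with windows 5 kb to either side, unweighted or weighted in G+C bins of 5 percentage points. The members, gene lists and motifs were chosen with earlier results of these data known. Named were the 10 widest domains, genes nearest to 4 or more, genes of the Hox, TALE, motor neuron, limb and axon lists with the most or nearest domains, Hoxc10 and Hprt. Genes of other lists, genes with 3 domains, and promoter and exon examples were chosen after their values were seen. Python 3.11.15, NumPy 2.4.6, SciPy 1.17.1, pandas 2.3.3 and Matplotlib 3.10.9 were used. One result of the TALE list, and with it the list's total, is not reported here. Code was tested on simulated data (14 checks, 0 differed).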

Additional observations from a re-analysis of the deposited data

How the results depend on the processing

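No paired analysis was possible because each group had 1 list made from both replicates, which also left no replicate to leave out. Of 85 alternative values, 53 moved by less than their counting interval or 1.5 times, 32 moved by more and 0 reversed. A minimum width of 100, 200 or 300 bp gave 1475, 597 or 123 private domains (3.57%, 2.06% and 0.554% of the list), of which 47.3%, 58.5% and 72.4% held TTTAT, since wider domains have more room for it. At 300 bp, 0.813% lay at promoters, the median distance to a TSS was 94.6 kb, G+C 45.3% and the TAAT ratio 1.35. With no other domain within 200 bp the private share was 2.28% and the promoter share 0.649%, and within 1000 bp 579 domains remained (1.71%, 0.345% at promoters). Letting an overlap count only when it covers 50% or more of the domain gave 2837 (8.39%, 3.21% at promoters), and comparing only with domains of 150 bp or more gave 2370 (7.01%), so that narrow domains of other lists decide much of the number. Without the no Dox list the share was 3.81%, and without EBs 3.00%. Promoters of 5 kb took 8.74%, and the TSS of all annotated genes gave 4.32% at promoters and a median distance of 20.3 kb. In the central 150 bp 45.7% held TTTAT, and a longer posterior consensus was in 44.3%. The unweighted TTTAT ratio of 1.13 stayed above 1 in these alternatives, but its counting interval included 1 at minimum widths of 100, 200 and 300 bp, with no other domain within 200 or 1000 bp, without the no Dox list and with flanks at 20 kb (1.05). Weighting by G+C raised the TTTAT ratio to 1.34 and the TAAT ratio to 1.43.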

Other observations

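The iHoxc10 domains at least 150 bp wide were also ordered by how many of the other 5 lists overlapped them, a count that is part of the rule, so the following is a description. Median width went from 218 bp in private domains over 235, 248, 280 and 344 bp to 598 bp in those found in all lists. Promoters took 1.79%, 2.12%, 2.97%, 3.42%, 5.45% and 53.9%. TTTAT in the central 150 bp did not follow this order: it was in 45.7% (42.5 to 48.9) of private domains and in 53.7% (51.1 to 56.3) of those shared with 1 list, then in 43.5%, 40.4%, 37.9% and 11.9%. The 577 domains shared with iHoxc9 alone were the largest group among those shared with 1 list.

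Without a chosen motif, 1360 sequences of 6 bases found in at least 40 private domains were compared with the flanks weighted by G+C content. GATTTA had a ratio of 2.48 and was in 13.3% of private iHoxc10 domains, 27.7% of private iHoxc9, 7.25% of private iHoxc6 and 6.95% of private no Dox domains. These letters lie within the composite TGATTTAT. The Onecut core ATCAAT followed with 2.29 and CATTAA with 2.24. CATAAA, which contains the posterior core, had 1.81 and was in 16.0% of private iHoxc10 but 42.9% of private iHoxc9 domains. AGGTCA, letters bound by nuclear receptors, had 1.93 and was in 18%, against 12.0%, 13.8% and 14.6% of private iHoxc9, iHoxc6 and no Dox domains. No test was made of these values, and the sequences were named after their values were seen.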
